A study of Mus musculus with 6 samples.

Results

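The genes described here are 10 antioxidant genes of the mouse small intestine, namely Nfe2l2, Gclc, Gclm, Gpx1, Gpx2, Gpx3, Prdx1, Srxn1, Txnrd1 and Nqo1, out of 12382 genes in the data. They were taken by name, and the rule itself uses no measured value. RNA was sequenced from the small intestine in 6 samples, all of C57BL/6 mice at 8 weeks of age, and the labels name no added allele or drug. In the intestinal ischemia/reperfusion (I/R) group, the study's methods give a block of the superior mesenteric artery for 45 minutes and then 4 hours of restored flow, and the 3 samples of this group are replicates 6, 7 and 9. The sham group, operated on but with normal blood flow, has 3 samples, replicates 1, 3 and 5. The labels do not say that each sample is a separate animal, so the p-values below measure the spread between these samples, which may be in part technical. Levels are FPKM (fragments scaled to the length of the transcript and to the total mapped), added up over the listed transcripts of a gene. Read counts cannot be had from them, and the sequencing depth is therefore unknown.

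NRF2, the product of Nfe2l2, is a transcription factor that KEAP1 holds in the cytoplasm and passes to the proteasome. Oxidants and electrophiles modify KEAP1, and NRF2 then enters the nucleus, pairs with a small MAF protein and binds antioxidant response elements beside genes of glutathione and thioredoxin metabolism. Glutathione peroxidases reduce peroxides at the expense of glutathione, and peroxiredoxins do so at the expense of thioredoxin. Blood returning to an ischemic gut is a textbook source of such oxidants.

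There are 2 kinds of sequence that the rule did not use and that some of the members hold. They are shown because the first is the type of site that NRF2 is known to bind and the second marks selenoproteins. The first is the core of the antioxidant response element, TGACNNNGC, searched on both strands from 250 bases before to 50 bases after each start site in RefSeq promoters (GRCm38.p6). Promoters were matched for 9 of the 10 members, all but Gclc. The core lay in 5 of these 9 genes (55.6%), against 14.0% of all 27025 genes with a promoter and 7 of 28 other NRF2 target genes. Capitals mark the match below, and each line gives the position of the printed stretch and how far upstream of the start site the match begins.
Srxn1, chr2:152105469-152105497, plus strand, 45 bases upstream, TGAGTCAGC: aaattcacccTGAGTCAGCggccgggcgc
Prdx1, chr4:116685456-116685484, plus strand, 133 bases upstream: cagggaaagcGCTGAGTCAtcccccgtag
Gclm, chr3:122245413-122245441, plus strand, 134 bases upstream: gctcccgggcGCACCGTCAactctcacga
Txnrd1, chr10:82859104-82859132, plus strand, 92 bases upstream: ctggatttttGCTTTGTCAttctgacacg
Nfe2l2, chr2:75704885-75704913, minus strand, 240 bases upstream: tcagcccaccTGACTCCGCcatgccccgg
The stretch of Srxn1 shows TGAGTCAGC, a sequence in 0.414% of all promoters. It holds the AP-1 type motif TGAGTCA, which occurs in 5.20% of promoters, and it differs from the core, for which Srxn1 has a separate match after its start site. The match of Prdx1 reads TGACTCAGC on the other strand, present in 0.454% of promoters, and it overlaps a TGAGTCA. Such matches describe letters in a window and are not shown to be bound.

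The second is the codon TGA read as selenocysteine, the residue at the active site of several glutathione peroxidases and near the end of thioredoxin reductase. In GENCODE M21 coding sequences, 4 of the 10 members held it in frame, and it stands in capitals in the stretches below.
Gpx1, codon 47: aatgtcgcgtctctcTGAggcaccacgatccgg
Gpx2, codon 40: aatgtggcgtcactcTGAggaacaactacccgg
Gpx3, codon 73: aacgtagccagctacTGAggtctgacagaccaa
Txnrd1, codon 498 of 500: ctccagtctggctgcTGAggttaa
The other 6 members held no TGA in frame before their last codon. By their means these 4 genes were divided, Gpx1 and Gpx2 being lower in I/R and Gpx3 and Txnrd1 higher.

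In the comparison of I/R with sham, no member passed the threshold. Across the 12000 genes tested with limma on log2(FPKM + 1), 0.0167% were called higher and 0.0167% lower at an adjusted p of 0.05, and the count of members was 0 in each direction. At a fold of at least 2 with an unadjusted p under 0.05, the call was made for 1 member in each direction. Gclc was the one called higher, against 1.92% of all tested genes, and Gpx2 the one called lower, against 0.975%. These were also the sole members past the unadjusted threshold alone, against 5.56% of genes higher and 3.38% lower. The groups of Gpx2 did not overlap, with I/R below sham as in 5.89% of genes, and no member lay wholly above sham, as 10.6% of genes did. The I/R mean of log2(FPKM + 1) was higher for 4 members and lower for 6, against 62.6% and 37.4% of all genes. The median log2 fold change was -0.42 over the members and 0.12 over all tested genes. After median-ratio scaling, 3 members were higher and 7 lower, and the shares of all genes called by fold and unadjusted p became 1.42% higher and 1.32% lower, with 7.34% wholly above and 9.41% wholly below sham.

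**Figure D1:**
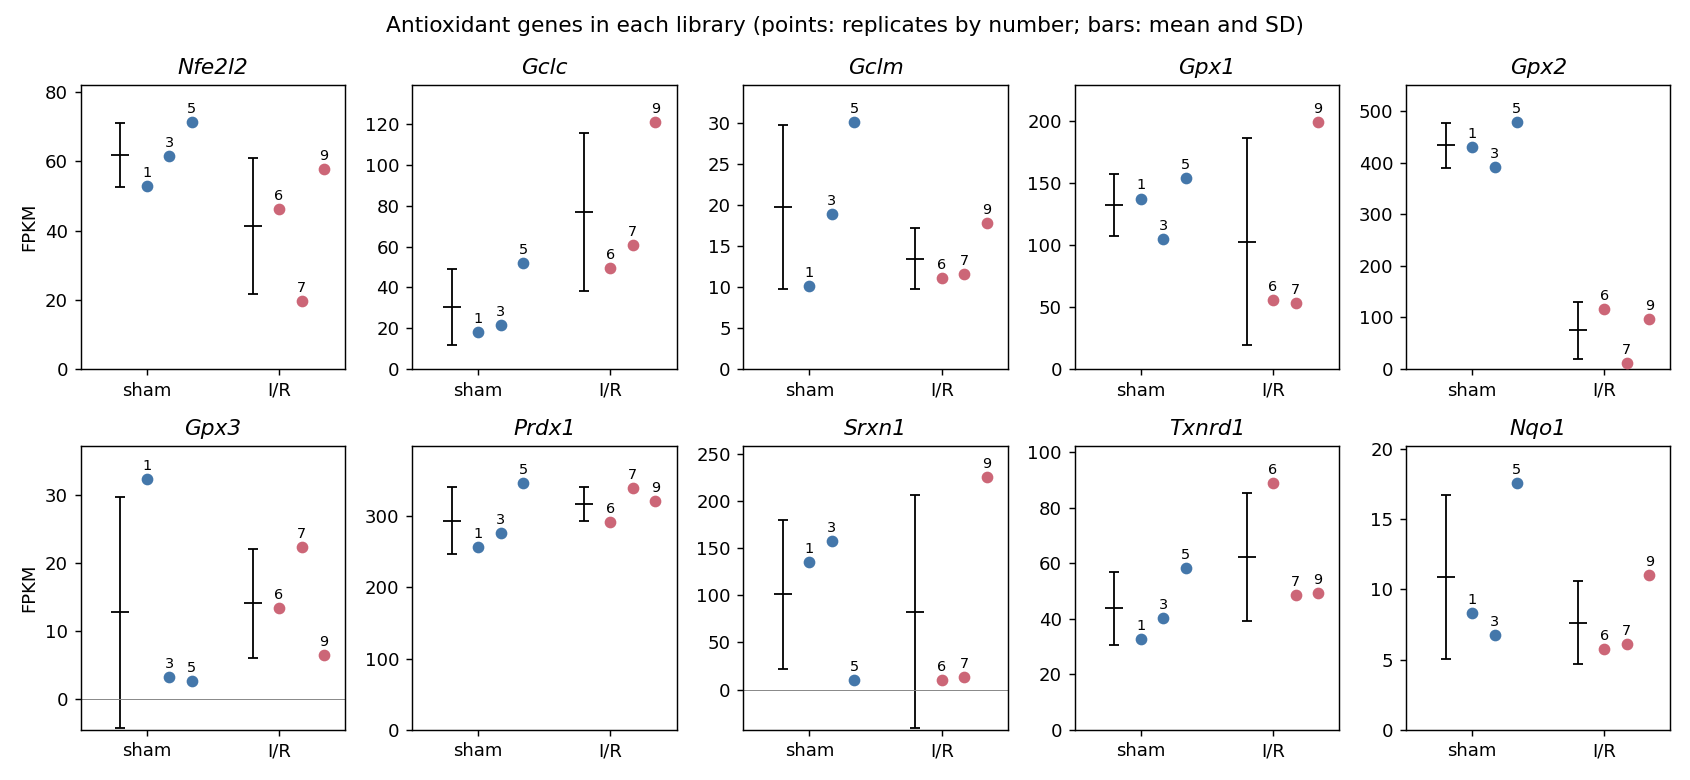
FPKM of the 10 members (vertical axes, a separate scale for each gene) in the sham replicates 1, 3 and 5 (blue) and the I/R replicates 6, 7 and 9 (red), with the mean and SD of each group in black (SD bars of Gpx3 and Srxn1 reach below 0, where no value lies). The 3 I/R values of Gpx2 lie between 12.1 and 116 FPKM, all below the sham values of 392 to 479, and the groups of the other 9 members overlap.

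Gpx2 was the highest member in each sham library and in none of the I/R libraries. It encodes the glutathione peroxidase of the gut lining, and lies at chr12:76792333-76795554 on the minus strand (mm10). Its level was 431, 392 and 479 FPKM in the sham group (replicates 1, 3 and 5) and 116, 12.1 and 97.0 FPKM in the I/R group (replicates 6, 7 and 9). All I/R samples were below all sham samples, and I/R replicate 7 was far below the other two. The group means were 434 ± 43.5 and 75.1 ± 55.4 FPKM (SD, n = 3 each), a level 5.77 times higher in sham. The log2 fold change was -3.02 ± 0.80 (SE, 95% interval -4.95 to -1.10), with a limma adjusted p of 0.472. An exact permutation test gave p = 0.1, the smallest it can give with 3 samples against 3, for a gene lower in 3 of 3 I/R samples.

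The difference in Gpx2 kept its direction, its lack of overlap and its call by fold in every alternative run, and it stayed short of the adjusted threshold in each. Leaving out I/R replicate 7, its lowest sample, brought the log2 fold change to -2.02 (limma adjusted p = 0.136). Fntb, a farnesyltransferase subunit gene, spans Gpx2 on the opposite strand and was at 3.33 to 7.35 FPKM in the 6 libraries. Gpx2-ps1, a processed pseudogene on chromosome 7 that could share reads with Gpx2, was not analysed here, so the level of Gpx2 is uncertain to that extent. Of Gpx2 itself 1 of 3 annotated transcripts was listed, and reads given to the others are not in its level.

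Of the epithelial markers, 10 of 15 enterocyte genes had a lower I/R mean, with a median log2 fold change of -0.21, and all 15 were above 0 in every library. Their summed level was 11163, 21584 and 14981 FPKM in sham and 9321, 12089.5 and 17276 FPKM in I/R, so the groups overlapped. Crypt and proliferation genes had a higher I/R mean in 7 of 9 cases, with a median log2 fold change of 0.60. The proliferation genes Mki67, Top2a, Mcm6 and Ccnb2 lay wholly above sham, as 10.6% of all genes did. In the list 2 genes passed the unadjusted threshold, against 5.56% of genes higher, and none the adjusted one. The summed level of the list, 99.5 to 246 FPKM in sham and 190 to 231 FPKM in I/R, overlapped. Olfm4 alone ranged from 6.71 to 110 FPKM in sham. The part of these cells in the level of Gpx2 was not tested. In bulk tissue, fewer cells of a type and less RNA per cell cannot be told apart.

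Gpx1, the ubiquitous cytosolic glutathione peroxidase (chr9:108338903-108340343, plus strand), split the I/R samples. It was at 137, 105 and 154 FPKM in the sham group (replicates 1, 3 and 5) and 55.8, 53.1 and 199 FPKM in the I/R group (replicates 6, 7 and 9). Replicates 6 and 7 lay below every sham sample and replicate 9 lay above every one. On the log2 scale the fold change was -0.63 ± 0.52 (SE, 95% interval -1.86 to 0.61). The limma adjusted p was 0.691, and the exact permutation p was 0.4. Without I/R replicate 9 the log2 fold change was -1.24, and without I/R replicate 7 it was -0.30, with limma adjusted p of 0.283 and 0.879.

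The table listed 2 Gpx1 transcripts, and they followed unlike courses. The transcript of 1072 bases, with 202 codons and the selenocysteine codon, was at 136, 105 and 152 FPKM in sham and 43.7, 42.9 and 199 FPKM in I/R. A shorter transcript of 787 bases, whose 145 codons hold no TGA in frame, was at 1.03, 0 and 1.69 FPKM in sham and 12.0, 10.3 and 0 FPKM in I/R. The short form made up 21.6% and 19.3% of the gene in I/R replicates 6 and 7, and at most 1.10% in the other 4 libraries. This split was chosen for description after the values were seen, and the limma adjusted p over 18216 transcripts was 0.735 for the short form and 0.752 for the long one. The short form is described as listed at 0 in sham replicate 3 and I/R replicate 9, since such a value may also stand for a failed assembly.

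**Figure D2:**
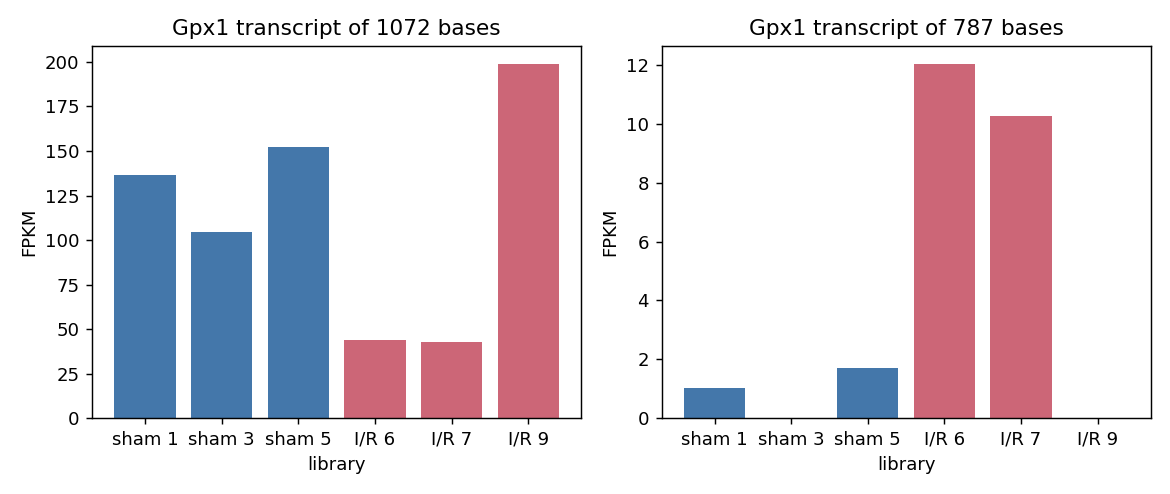
FPKM (vertical axes, separate scales) of the 2 listed Gpx1 transcripts in each library, with sham in blue and I/R in red and 1 bar per library. The short transcript reaches 12.0 and 10.3 FPKM in I/R replicates 6 and 7, the libraries where the long one is lowest, at 43.7 and 42.9 FPKM.

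Gpx3, the secreted glutathione peroxidase of plasma (chr11:54902453-54910377, plus strand), was uneven within the sham group. Its level was 32.4, 3.15 and 2.63 FPKM in sham and 13.4, 22.4 and 6.43 FPKM in I/R. Sham replicate 1 was the highest of the 6 samples, and the other sham samples were the lowest. On the log2 scale I/R minus sham was 0.77 ± 0.90 (SE, 95% interval -1.39 to 2.93). Neither limma (adjusted p = 0.777) nor the exact permutation test (p = 0.6) called a difference. Leaving out sham replicate 1 brought the log2 fold change to 1.81 (limma adjusted p = 0.268) and the groups no longer overlapped, as for 26.4% of genes in that setting. There Gpx3 was the member called higher by fold and unadjusted p, with 5.36% of all genes, in place of Gclc. The same sham replicate was the highest of its group in 8 of 8 smooth muscle and 7 of 7 fibroblast markers. Over all tested genes the share was 50.8%. It also led in 7 of 8 macrophage and 5 of 6 plasma cell markers, but in 0 of 15 enterocyte markers. The part of these cells in the level of Gpx3 was not tested.

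None of the 3 other family members tested passed the adjusted or the unadjusted threshold. Gpx4, which reduces lipid peroxides within membranes, lay between 110 and 162 FPKM in sham and between 116 and 158 FPKM in I/R, with a log2 fold change of -0.02. Gpx7 and Gpx8, of the endoplasmic reticulum, were at no more than 2.80 FPKM in any library, and Gpx5 and Gpx6 were not analysed here. Summed over the 6 Gpx genes, the sham level was 717 ± 80.2 FPKM and the I/R level 328 ± 123 FPKM (SD, n = 3 each). Gpx2 made up 59.9% to 61.3% of that sum in the sham libraries and 38.4%, 5.54% and 21.0% in I/R replicates 6, 7 and 9. Gpx4 made up 15.4% to 21.5% in the sham libraries and 34.3% to 58.9% in those of I/R, and these shares depend on one another since they add up to the whole.

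Glutathione is made from glutamate, cysteine and glycine, and the first and limiting step is run by glutamate-cysteine ligase, a pair of the catalytic subunit from Gclc and the modifier subunit from Gclm. Gclc (chr9:77754535-77794485, plus strand) was at 18.1, 21.3 and 52.0 FPKM in the sham group (replicates 1, 3 and 5) and 49.3, 60.7 and 121 FPKM in the I/R group (replicates 6, 7 and 9). The groups overlapped through sham replicate 5, which lay just above I/R replicate 6. The means were 30.5 ± 18.7 and 77.0 ± 38.6 FPKM (SD, n = 3 each), a level 2.53 times higher in I/R. The log2 fold change was 1.36 ± 0.49 (SE, 95% interval 0.19 to 2.52). Its limma adjusted p was 0.533, and the exact permutation test gave p = 0.2. Its call by fold and unadjusted p was lost after median-ratio scaling and without sham replicate 1, sham replicate 3, I/R replicate 7 or I/R replicate 9, with log2 fold changes from 0.98 to 1.47 in these settings.

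Gclm (chr3:122245557-122270732, plus strand) had a lower I/R mean, where Gclc had a higher one. Within each group, the libraries stood in the same order in both genes. Its level was 10.1, 18.9 and 30.1 FPKM in sham and 11.0, 11.5 and 17.8 FPKM in I/R, and the I/R values lay within the sham range. Its log2 fold change was -0.43 ± 0.40 (SE, 95% interval -1.38 to 0.53). The limma adjusted p was 0.723, and the exact permutation p was 0.6. Over the fits without 1 library the log2 fold change ran from -0.81 to -0.07. The value of -0.81 was reached without sham replicate 1, where Gclm passed the unadjusted threshold (2.84% of genes lower) and lay wholly below sham (8.98%), with a limma adjusted p of 0.354. Within a library, Gclc was 1.78, 1.13 and 1.73 times the FPKM of Gclm in sham replicates 1, 3 and 5, and 4.46, 5.26 and 6.82 times in I/R replicates 6, 7 and 9. The ratios of the groups did not overlap, with means of 1.55 ± 0.36 and 5.51 ± 1.20 (SD, n = 3 each). A ratio within a library does not depend on scaling between libraries, and it does not tell which gene changed. How often the ratios of other pairs of genes separate in this way was not counted. It was chosen after the values were seen, so it has no test. The ratio rests on 1 listed transcript of each gene, out of 3 annotated for Gclc and 7 for Gclm. The difference between the log2 fold changes of Gclc and Gclm was 1.78, and it ran from 1.58 to 1.93 over the alternatives.

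Of the other genes of glutathione synthesis, recycling and breakdown, 12 of 13 were tested and none passed the adjusted threshold. Their I/R mean was lower in 10 of 12, against 37.4% of all genes, with a median log2 fold change of -0.42. The groups did not overlap for 4, all lower in I/R, against 5.89% of all genes. Those 4 were Dpep1, Anpep, Ggt1 and Chac2. All but Ggt1, 3 in number, were past the unadjusted threshold, against 3.38% of all genes lower. Dpep1, a brush border dipeptidase that splits cysteinylglycine from spent glutathione, was at 312, 317 and 280.0 FPKM in sham and 204, 199 and 145 FPKM in I/R (log2 fold change -0.74, limma adjusted p = 0.472). Chac2, which degrades glutathione in the cytosol, was at 5.80, 4.93 and 8.16 FPKM in sham and 3.51, 2.31 and 4.08 FPKM in I/R (log2 fold change -0.76, limma adjusted p = 0.533). Anpep, an aminopeptidase and also on the enterocyte list, had a log2 fold change of -0.51, and Ggct, of the gamma-glutamyl cycle, had 0.69 at levels of at most 3.32 FPKM. The part of enterocyte content in these levels was not tested.

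Prdx1, an abundant cytosolic peroxiredoxin (chr4:116685544-116700822, plus strand), was the steadiest member. It was at 257, 277 and 347 FPKM in sham and 292, 339 and 321 FPKM in I/R, all I/R values inside the sham range. Its log2 fold change was 0.12 ± 0.19 (SE, 95% interval -0.33 to 0.57), close to the median of all genes. Neither limma (adjusted p = 0.833) nor the exact permutation test (p = 0.5) called a difference. After median-ratio scaling the log2 fold change was -0.03. The transcript of 2294 bases, 1 of 4 listed, held 93.9% to 98.0% of the level. Prdx1 was the highest member in each of the 3 I/R libraries, where no range of another member reached it.

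Srxn1 encodes sulfiredoxin, which repairs peroxiredoxins that peroxide has over-oxidised, and lies at chr2:152105516-152111376 on the plus strand. Its 95% interval was the widest of the 10 members. Its level was 135, 158 and 10.5 FPKM in the sham group (replicates 1, 3 and 5) and 9.91, 13.3 and 225 FPKM in the I/R group (replicates 6, 7 and 9). In each group 1 library differed from the rest, sham replicate 5 by a low value and I/R replicate 9 by a high one. The log2 fold change was -0.94 ± 1.45 (SE, 95% interval -4.42 to 2.54). Its limma adjusted p was 0.83, and the exact permutation test gave p = 0.9. Only 1 of the 3 annotated transcripts was listed, so reads given to the others are not in these values. Every member but Nqo1 had unlisted transcripts, among them Gclm (1 of 7 listed) and Txnrd1 (1 of 8 listed).

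These 2 libraries, sham replicate 5 and I/R replicate 9, were also the lowest of their groups in 8 of 8 smooth muscle markers. Over all tested genes the shares were 28.7% and 39.2%. Each was also the lowest in 5 of 6 adipocyte markers, and they were so in 5 of 7 and 6 of 7 fibroblast markers. The summed smooth muscle marker level was 678, 293 and 142 FPKM in sham and 938, 857 and 33.3 FPKM in I/R. No smooth muscle marker was listed at 0. Without these 2 libraries, a setting chosen after the data were seen, the log2 fold change of Srxn1 was -3.56 and that of Gpx1 was -1.13. For Srxn1 this value is a description with no test, since the libraries left out are those that departed from their groups in it. The same holds for Gpx1, where I/R replicate 9 was the I/R value above every sham sample. Gpx2 stayed called lower by fold and unadjusted p in that setting (1.29% of all genes) and Gclc higher (2.39%). Srxn1 and Gpx1 were called lower there too, but those calls followed from the libraries left out and are no support. With 2 samples a group, 5 members lay wholly lower (14.0% of all genes) and 3 wholly higher (24.9% of all genes). Among these, Gpx1, Nfe2l2 and Nqo1 had overlapped through I/R replicate 9 alone, and Gclc, Prdx1 and Txnrd1 through sham replicate 5 alone. Apart from that of Gpx2, these separations followed from the libraries left out. The part of muscle, fat or fibroblast content in these differences was not tested.

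Txnrd1 encodes the cytosolic reductase that returns thioredoxin to use (chr10:82833951-82897712, plus strand). It was at 32.6, 40.2 and 58.4 FPKM in sham and 89.0, 48.6 and 49.1 FPKM in I/R. I/R replicate 6 was the highest, and sham replicate 5 exceeded the other I/R samples. Its log2 fold change was 0.48 ± 0.32 (SE, 95% interval -0.29 to 1.25). The limma adjusted p was 0.659, and the exact permutation p was 0.3. Without I/R replicate 6 the log2 fold change was 0.20.

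Among the 16 other peroxiredoxin and thioredoxin genes, all tested, 13 had a higher I/R mean and 3 a lower one. Over all genes the shares were 62.6% and 37.4%, and no gene of the list passed the adjusted threshold. The median log2 fold change was 0.22, and 3 genes, Prdx6, Prdx4 and Glrx5, lay wholly above sham, against 10.6% of all genes. Prdx6, which reduces phospholipid peroxides, was at 58.1, 70.4 and 81.6 FPKM in sham and 86.6, 118 and 161 FPKM in I/R (log2 fold change 0.76 ± 0.27 SE, limma adjusted p = 0.533). It was the sole gene of the list past the unadjusted threshold. Glrx5 and Txn2, both mitochondrial, had log2 fold changes of 0.40 and 0.32, and Prdx4, of the endoplasmic reticulum, had 0.36.

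Nfe2l2 (chr2:75675513-75704641, minus strand) was at 52.8, 61.5 and 71.4 FPKM in sham and 46.3, 19.5 and 57.8 FPKM in I/R. I/R replicates 6 and 7 were below every sham sample, while replicate 9 lay above sham replicate 1. The log2 fold change was -0.70 ± 0.40 (SE, 95% interval -1.65 to 0.25). Neither limma (adjusted p = 0.624) nor the exact permutation test (p = 0.2) called a difference. Without I/R replicate 7 the log2 fold change was -0.24. NRF2 is controlled in large part through the stability of its protein, and its transcript level says nothing on that.

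The genes whose levels ran most like Nfe2l2 over the 6 libraries were Rab1a, Ap1ar and Pde4dip, with Pearson r of 0.998, 0.994 and 0.989 on log2(FPKM + 1) among 6672 genes of at least 5 FPKM. The lowest value of each lay in I/R replicate 7, as for Nfe2l2. Rab1a, for example, was at 110.1, 128 and 147 FPKM in sham and 105, 45.8 and 127 FPKM in I/R. This likeness is a description over 6 libraries, whose depth is unknown and whose tissue content differed.

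The regulators and partners of NRF2 numbered 11, all tested, with a median log2 fold change of -0.14. Of these, 4 had a higher and 7 a lower I/R mean, against 62.6% and 37.4% of all genes. None passed the adjusted or the unadjusted threshold. Mafg, a small MAF partner, was at 5.73, 5.49 and 7.32 FPKM in sham and 7.08, 0.906 and 1.88 FPKM in I/R (log2 fold change -1.01, limma adjusted p = 0.611). Maff, another small MAF gene, lay between 1.00 and 1.25 FPKM in sham and was at 11.1, 1.63 and 1.53 FPKM in I/R, wholly above sham but through 1 library for the most part (log2 fold change 1.01, limma adjusted p = 0.632). Keap1, the negative regulator, named after its values were seen, lay between 13.9 and 19.6 FPKM in sham and between 13.4 and 20.7 FPKM in I/R.

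Nqo1, a quinone reductase and a classical NRF2 target (chr8:107388225-107403206, minus strand), was the lowest member in each group by its mean. It was at 8.35, 6.78 and 17.6 FPKM in sham and 5.76, 6.11 and 11.0 FPKM in I/R. I/R replicates 6 and 7 lay below every sham sample and replicate 9 lay within the sham range. I/R minus sham came to -0.41 on the log2 scale ± 0.40 (SE, 95% interval -1.36 to 0.55). Its limma adjusted p was 0.731, and the exact permutation test gave p = 0.5. Leaving out sham replicate 5 brought the log2 fold change to -0.03. The genes that ran most like it were Abcc3, Ugt1a7c and Nfxl1, with Pearson r of 0.990, 0.975 and 0.973 over the 6 libraries. Abcc3, an efflux pump also on the list of NRF2 targets, was at 19.5, 13.9 and 36.8 FPKM in sham and 13.8, 13.5 and 22.6 FPKM in I/R, highest in sham replicate 5 as Nqo1 was.

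Of 34 other NRF2 target genes, 33 were tested and none passed the adjusted or the unadjusted threshold. The I/R mean was higher for 21 and lower for 12, against 62.6% and 37.4% of all genes. The median log2 fold change was 0.21, against 0.12 over all genes. The groups did not overlap for 3, all higher in I/R, against 10.6% of all genes. These were Mgst1, Fth1 and Taldo1. Mgst1, a microsomal glutathione transferase, was at 211, 208 and 244 FPKM in sham and 253, 281 and 388 FPKM in I/R (log2 fold change 0.45, limma adjusted p = 0.591). Gsta1, a glutathione transferase, was at 63.0, 57.8 and 171 FPKM in sham and 133, 171 and 216 FPKM in I/R (log2 fold change 0.98, limma adjusted p = 0.578). Akr1b8, an aldo-keto reductase, had a log2 fold change of 1.22, and Abcc2, an apical efflux pump, had -0.99, with limma adjusted p of 0.591 and 0.566. Hmox1, the heme-degrading enzyme, named after its values were seen, was at 4.00, 0.374 and 8.79 FPKM in sham and 17.6, 6.35 and 11.0 FPKM in I/R (log2 fold change 1.53, limma adjusted p = 0.591). Without sham replicate 3 its log2 fold change was 0.75, and over the fits without 1 library it ran up to 2.17.

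**Figure D3:**
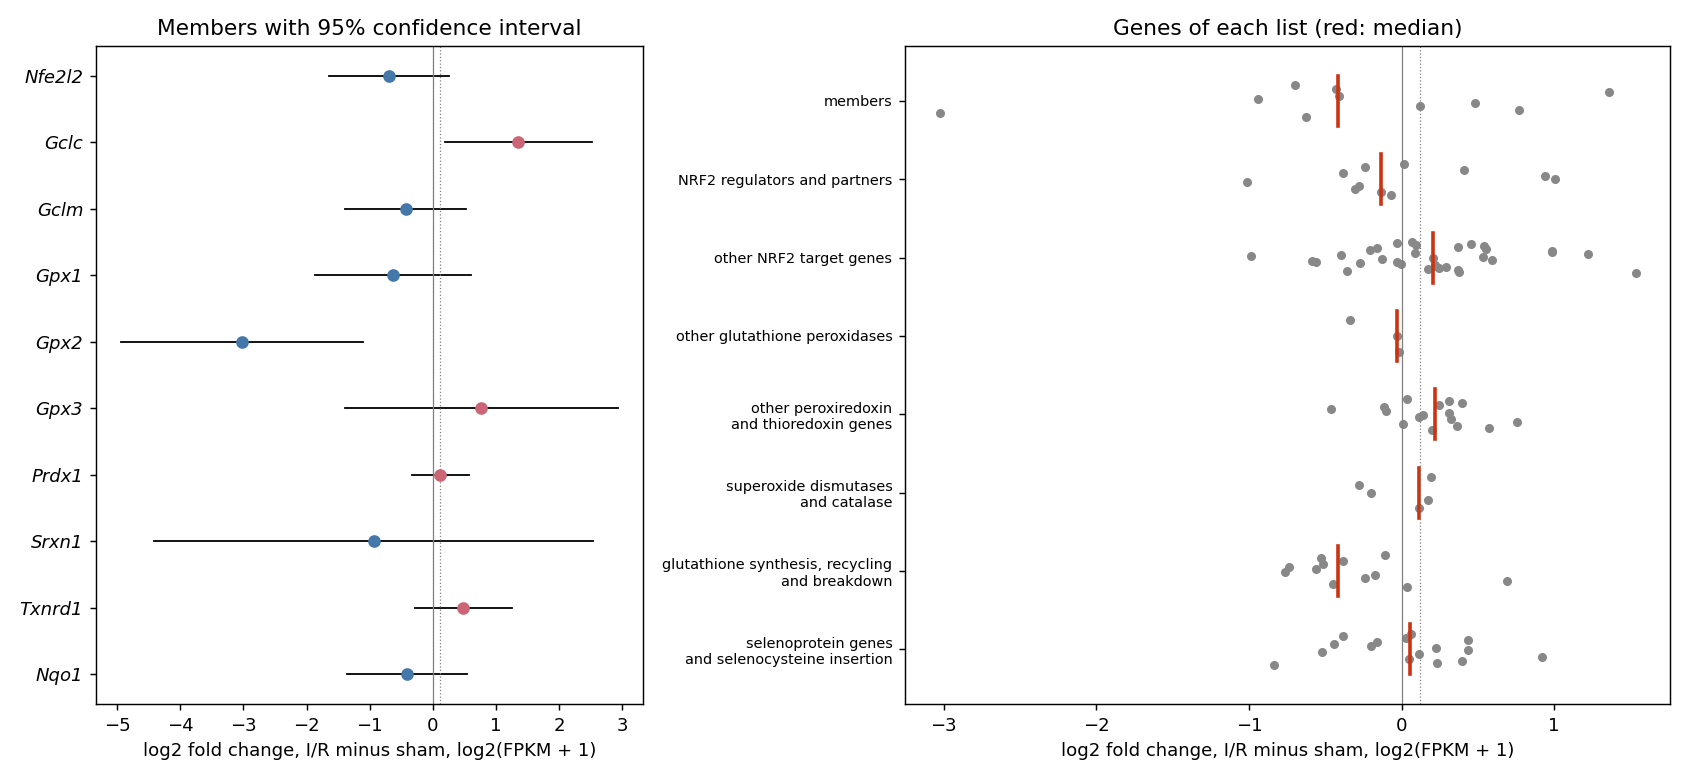
Left, log2 fold change (I/R minus sham, on log2(FPKM + 1)) of each member with its 95% confidence interval. Right, the same quantity for every tested gene of the members and of the 7 other lists (grey points), with each list's median in red; solid and dotted vertical lines mark 0 and the median of all genes, 0.12. Intervals of Gpx2 and Gclc exclude 0, and those of the other 8 members include it.

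Selenoprotein and selenocysteine insertion genes gave 16 tested of 17, with a median log2 fold change of 0.06. The I/R mean was higher for 10 and lower for 6, against 62.6% and 37.4% of all genes. Selenos, an endoplasmic reticulum selenoprotein, was at 28.4, 51.6 and 31.9 FPKM in sham and 62.4, 78.3 and 67.5 FPKM in I/R (log2 fold change 0.92 ± 0.25 SE, limma adjusted p = 0.482), wholly above sham. Selenop, the carrier of selenium in plasma, was at 1413, 2025 and 1226 FPKM in sham and 1202, 769 and 662 FPKM in I/R (log2 fold change -0.84 ± 0.32 SE, limma adjusted p = 0.541), wholly below sham. These were the sole genes of the list past the unadjusted threshold, against 5.56% of all genes higher and 3.38% lower. Of all genes, 10.6% lay wholly above and 5.89% wholly below sham. None of the list passed the adjusted threshold. Dio1 and Selenon had log2 fold changes of -0.44 and 0.44. Superoxide dismutase genes and catalase, 5 in all, had 3 higher and 2 lower I/R means, and none passed either threshold. Their log2 fold changes included -0.28 for Cat, 0.19 for Ccs, 0.17 for Sod2 and 0.12 for Sod1, and that of Sod1 was -0.03 after median-ratio scaling.

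Differences between libraries of a group ran through most of the members. Sham replicate 5 was the highest of the sham libraries in 8 of 10 members and in 23 of 33 other NRF2 targets, against 29.9% of all tested genes. I/R replicate 9 was the highest of the I/R libraries in 6 of 10 members and in 23 of 33 other NRF2 targets, against 29.7% of all tested genes. The exceptions among the members were Gpx3 and Srxn1 in sham, and Gpx2, Gpx3, Prdx1 and Txnrd1 in I/R. I/R replicate 9 was also the highest of its group in 13 of 15 enterocyte markers, and sham replicate 5 in 2 of 15, where sham replicate 3 led in 13. Sham replicate 5 led in 7 of 9 crypt and proliferation markers. The part of these contents in the levels of the members was not tested.

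**Figure D4:**
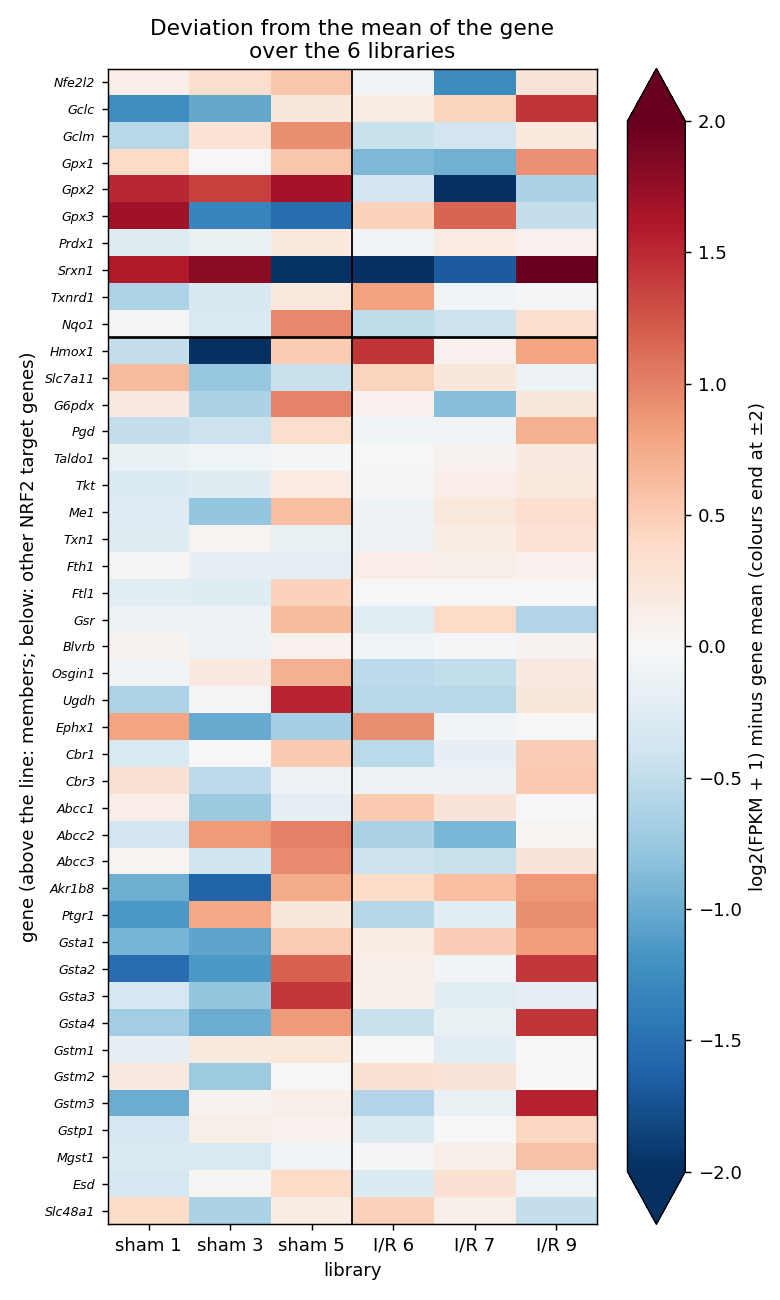
Deviation of each gene from its own mean over the 6 libraries, in log2(FPKM + 1), for the 10 members (above the line) and 33 other NRF2 target genes (below), with red above and blue below the mean and colours that end at -2 and 2. Columns are libraries, sham to the left of the vertical line, and sham replicate 5 and I/R replicate 9 hold the highest value of their group in 23 of the 33 genes below the line.

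Ordered by mean level, the sham group ran Gpx2, Prdx1, Gpx1, Srxn1, Nfe2l2, Txnrd1, Gclc, Gclm, Gpx3 and Nqo1. The ranges of Gpx2 and Prdx1, and of Prdx1 and Gpx1, did not overlap in sham, and every later pair of neighbours did. In I/R the order was Prdx1, Gpx1, Srxn1, Gclc, Gpx2, Txnrd1, Nfe2l2, Gpx3, Gclm and Nqo1, and only Prdx1 stood clear of its neighbour. Gpx2 stood at rank 1 in sham and rank 5 in I/R, and Gclc at rank 7 and rank 4.

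Markers of blood-borne cells were summed as well. The summed level of neutrophil markers, 7 of 9 tested, was 2.25 to 5.69 FPKM in sham and 8.38 to 42.7 FPKM in I/R. That of red cell markers, 4 of 6 listed, was 18.8 to 92.1 FPKM in sham and 62.9 to 185 FPKM in I/R, so these ranges overlapped. No gene of either list passed the adjusted threshold. Of the 7 neutrophil genes 6 had a higher I/R mean and 1 a lower one. S100a8, Ly6g, Retnlg and Csf3r had sham means below 0.5 FPKM and were listed only through I/R. Their direction was thus fixed by the listing, and the count and the sum are descriptions only. S100a8, a defining neutrophil gene, was listed at 0 in the 3 sham libraries and at 1.46 to 4.43 FPKM in I/R, while Mmp9 lay wholly below sham, at 1.19 to 1.23 FPKM in sham and 0.565 to 0.986 FPKM in I/R. I/R replicate 6, the highest in both sums, was also the highest in Txnrd1, Maff and Hmox1. It led its group in 2 of 10 members and 8 of 33 other NRF2 targets, against 47.5% of all tested genes. The part of blood-borne cells in these levels was not tested.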

How the data were processed

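RNA was extracted with Trizol from small intestine, and stranded libraries were made with dUTP marking. The authors deposited FPKM values for 19763 transcripts in 6 samples. Per the submitters' processing notes, cutadapt, HISAT2 (version 2.0.4) and StringTie were run on build mm10, and the annotation is not given in the sources used here. Every listed transcript reached a mean of 0.5 FPKM in sham or I/R, as tested on the values. FPKM summed to between 315726 and 330814 per library, and 5.05% to 7.78% of values were 0. Identifiers were matched without version to GENCODE M21 (19702 matched, 61 not), and FPKM of a gene's listed transcripts were summed. Members were all tested.

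Groups followed the labels. I/R was set against sham for 12000 genes whose mean over the 6 samples reached 0.5 FPKM, with R 4.3.3 and limma 3.58.1 (lmFit, eBayes with trend), on log2(FPKM + 1), 2-sided, with Benjamini-Hochberg adjustment and a threshold of 0.05. A fold of 2 is on that scale, which understates changes of low genes. Single members had exact permutation tests over 20 regroupings. The procedure was tested on simulated data with 200 changed genes. At the adjusted threshold it recovered 5.67% of 2-fold, 66.2% of 4-fold and 86.4% of 8-fold changes. A 2-fold change was thus mostly missed there. No scaling was applied. The median log2 fold change of all genes was 0.12, against 0.01 after median-ratio scaling. Tests, intervals and counts by direction are against 0, and this shift was not subtracted from them.

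Members and gene lists were chosen with earlier results of these data known. Named are the members, up to 4 genes of each list by smallest p, and 3 genes most similar to Nfe2l2 and to Nqo1. Ggt1, Fth1, Taldo1 and the Gpx1 transcripts, besides genes said to be, were named after their values were seen. Alternatives were no filter, a minimum of 5 FPKM, pseudocounts of 0.1 and 0.5, genes above 0 in all libraries, median-ratio and quantile normalization, no trend, the highest transcript only, and leaving out each library.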

Additional observations from a re-analysis of the deposited data

How the results depend on the processing

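No member passed the adjusted threshold in any alternative, and Gpx2 stayed lower by fold and unadjusted p in each. Of the values of single genes and of the difference between Gclc and Gclm, 616 kept direction and side while 16 reversed. Reversals after median-ratio scaling were Prdx1 (-0.026) and Sod1 (-0.031), and with the highest transcript only Keap1 (0.12). Leaving out single libraries gave reversed values in Gpx7, Gpx4, Sod1, Sod2 and Keap1, whose ranges were -0.27 to 0.17 for Gpx7, -0.16 to 0.11 for Gpx4, -0.17 to 0.27 for Sod1, -0.085 to 0.37 for Sod2 and -0.23 to 0.067 for Keap1. Members called higher by fold and unadjusted p, or by the latter alone, numbered 0 after median-ratio scaling, and 2 members (Gpx2 and Nfe2l2) lay wholly lower after quantile normalization (9.95% of all genes). Over all genes, calls higher were 0 after median-ratio scaling, 1 after quantile normalization and 1 with the highest transcript only, and calls lower were 1 at a minimum of 5 FPKM and 1 for genes above 0 in all libraries. Transcripts, with 2 higher and 4 lower, gave 2 lower at a pseudocount of 0.1, 2 at the minimum of 5 FPKM and 1 above 0 in all libraries, and 1 higher after median-ratio scaling and 1 without the trend. Leaving out each library moved calls over all genes from 0 to 4 higher and 0 to 5 lower, and transcripts from 0 to 2 higher and 0 to 3 lower. For the members it gave 0 to 1 higher and 1 to 3 lower by fold and unadjusted p as by the latter alone, and 0 to 3 wholly higher and 1 to 4 wholly lower. Over all genes these shares ran from 1.5% to 5.36% higher and 0.925% to 1.41% lower by fold and unadjusted p, from 3.25% to 10.8% and 2.48% to 2.92% by the latter alone, and from 12.9% to 26.4% wholly higher and 8.23% to 10.5% wholly lower. The member called higher was Gclc, or Gpx3 without sham replicate 1. The 3 lower came without I/R replicate 9 (Gpx1, Gpx2 and Nfe2l2). Without sham replicate 5 and I/R replicate 9, added after the data were seen, all genes gave 1 higher and 1 lower, and transcripts 0 and 0. Members then gave 3 lower by fold and unadjusted p or by the latter alone (Gpx1, Gpx2 and Srxn1), 3 wholly higher and 5 wholly lower. Apart from those of Gpx2, these calls and separations followed from the libraries left out. In the same setting Gpx7 (0.17) and Sod1 (-0.0068) reversed. The cause of these changes was not tested. No paired analysis was possible because the sham samples (1, 3 and 5) and the I/R samples (6, 7 and 9) share no replicate number. FPKM without counts leave the precision of low values, such as those of Gpx7, Gpx8 and Maff, unknown, and 3 samples a group leave wide intervals.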
